A study of Mus musculus with 6 samples.

Results

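The regions described here are the open chromatin regions around 10 genes of the hypoxia response in mouse nephron progenitor cells, the cells of the outer kidney that give rise to the nephrons. The genes are the subunits of the hypoxia-inducible factor (Hif1a, Epas1, Arnt), the proteins that sense oxygen and mark the factor for destruction (Vhl, Egln1, Egln3) and classical target genes (Vegfa, Adm, Bnip3, Ankrd37). A region was taken as belonging to a gene if its midpoint lay in the gene body or within 50 kb of it, and this chose 26 of the 43523 distinct regions of the count table, at 9 of the 10 genes. Chromatin accessibility was measured by ATAC-seq, where Tn5 transposase cuts and tags DNA that is not packed into nucleosomes. The study compared CD1 mouse cells of the E14.5 embryo (3 libraries) with cells of the day of birth, P0 (3 libraries), and no genotype, transgene or treatment is given for either stage. Each library came from 50000 cells of the pooled kidneys of 1 litter, taken by limited digestion of the outer kidney and selection with magnetic beads against Itga8. In such bulk libraries a difference per cell and a difference in the share of cells with a region open cannot be told apart.

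In cells with enough oxygen, the prolyl hydroxylases encoded by Egln1 and Egln3 modify the alpha subunits Hif1a and Epas1, and the ubiquitin ligase that contains Vhl then targets them for degradation. When oxygen is low the alpha subunits persist, pair with Arnt and bind DNA at short sites with the core ACGTG or GCGTG, near genes of blood vessel growth, glycolysis and mitochondrial turnover. The developing kidney is known as a tissue of low oxygen. Regulation of the alpha subunits lies largely in protein stability, which ATAC-seq does not measure.

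The start sites of 7 genes lay in a listed region, and 4 of those (Hif1a, Egln3, Bnip3, Ankrd37) held the core ACGTG in the 250 bases before the start. The sequences of these and of Egln1, which held the core but had no listed region at its start, are shown because they set the open starts beside the letters that the factor binds. They are RefSeq sequences of build GRCm38.p6, 5′ to 3′ on the strand of the gene and ending at the base before the start site, with each ACGTG on either strand in capitals.
Hif1a, chr12:73907617-73907866, + strand: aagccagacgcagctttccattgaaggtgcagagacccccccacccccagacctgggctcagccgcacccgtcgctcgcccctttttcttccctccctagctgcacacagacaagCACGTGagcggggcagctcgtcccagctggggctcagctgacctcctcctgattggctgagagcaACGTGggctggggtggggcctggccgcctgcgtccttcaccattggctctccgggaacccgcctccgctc
Egln3, chr12:54203875-54204124, - strand: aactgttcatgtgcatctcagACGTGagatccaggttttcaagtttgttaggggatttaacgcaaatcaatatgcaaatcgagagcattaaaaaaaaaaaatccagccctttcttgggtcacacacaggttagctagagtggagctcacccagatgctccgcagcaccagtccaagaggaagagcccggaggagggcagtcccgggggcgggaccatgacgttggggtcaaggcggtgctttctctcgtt
Bnip3, chr7:138909507-138909756, - strand: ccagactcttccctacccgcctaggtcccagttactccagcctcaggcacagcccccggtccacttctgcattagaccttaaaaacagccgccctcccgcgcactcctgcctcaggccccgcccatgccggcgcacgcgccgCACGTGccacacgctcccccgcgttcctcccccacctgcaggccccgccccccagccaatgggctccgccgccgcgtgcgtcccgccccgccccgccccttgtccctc
Ankrd37, chr8:45999851-46000100, - strand: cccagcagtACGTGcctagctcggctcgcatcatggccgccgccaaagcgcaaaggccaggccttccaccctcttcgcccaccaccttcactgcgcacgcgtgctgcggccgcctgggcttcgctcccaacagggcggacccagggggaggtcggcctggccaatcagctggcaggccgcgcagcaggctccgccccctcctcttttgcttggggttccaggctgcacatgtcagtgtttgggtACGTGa
Egln1, chr8:124949255-124949504, - strand: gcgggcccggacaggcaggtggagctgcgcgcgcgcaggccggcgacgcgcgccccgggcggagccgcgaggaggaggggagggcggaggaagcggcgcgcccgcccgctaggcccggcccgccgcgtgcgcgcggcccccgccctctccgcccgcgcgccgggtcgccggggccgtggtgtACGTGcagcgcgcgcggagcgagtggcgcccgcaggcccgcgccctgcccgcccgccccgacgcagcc

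In Bnip3 the capitals are a single CACGTG, 108 bases before the start, which reads as ACGTG on both strands. Hif1a had the same palindrome 135 bases before its start and a further ACGTG 70 bases before it. In Ankrd37 the cores lay 241 and 6 bases before the start, in Egln3 229 and in Egln1 68 bases before it. Over 21262 windows of this length before protein-coding starts, 17.8% held ACGTG on either strand, and the share was 22.2% in windows overlapping a listed region and 12.5% in the others. Of the 10 windows of 9 of the genes (Epas1 was not matched, and Vegfa has more than 1 start), 6 held ACGTG, and the sixth was the second start of Vegfa. The related core GCGTG was in 33.8% of all windows (47.5% of those overlapping a listed region and 17.5% of the others) and also in 6 of the 10, including those of Arnt and Adm, which lacked ACGTG. The window of Vhl and that of the first start of Vegfa held neither. The table's own motif annotation names 56 motifs, of which 0 belong to Hif1a, Epas1 or Arnt, so no match list of the factor was used.

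Start sites of Egln1, Vegfa and Adm lay outside every listed region. Of 17491 protein-coding genes with a reference start, 56.1% had a listed region there. For Adm, which encodes the vasodilator peptide adrenomedullin, the nearest region began 2.24 kb after the start, just beyond the end of the gene on chromosome 7 (110629901 to 110630870). Around Vegfa, the growth factor of blood vessels, the nearest regions on chromosome 17 ended 249.4 kb below the gene and began 71.9 kb above it, so that no region fell in its window. Names of the regions carry numbers that rise along the genome, up to 63704 for 45489 rows. Between the regions flanking Vegfa 3 numbers are missing, between those flanking the start of Egln1 1 is missing, and between those flanking the start of Adm 0 are missing. Of all numbers, 28.6% are missing, and where the regions with missing numbers lie between their neighbours is not known. Such regions were not analysed here. The absence of a listed region is not a measure of closed chromatin at Vegfa, Egln1 or Adm.

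**Figure D1:**
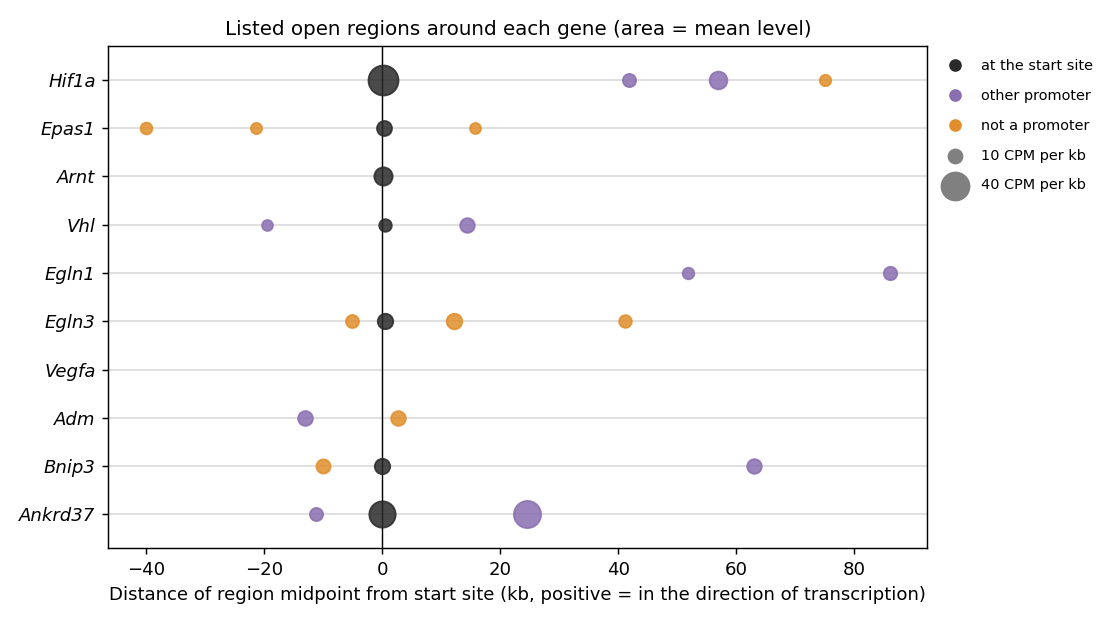
Position of each listed region as the distance of its midpoint from the start site of the gene (x axis, kb), for the 10 genes (rows), with the area of a point set by the mean accessibility over 6 libraries in CPM per kb. Black points are the 7 regions at start sites, purple points the 10 promoters of neighbouring genes and orange points the 9 regions outside promoters, and the row of Vegfa is empty.

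Much of what the 50 kb windows held belonged to neighbours. Besides the 7 regions at start sites, 10 were listed as promoters of other genes, such as Snapc1 beside Hif1a, Irak2 beside Vhl, Gnpat beside Egln1, Sbf2 beside Adm and Ppp2r2d beside Bnip3. The region at the start of Ankrd37 was itself listed as the promoter of Lrp2bp. Of the other 9 regions, 5 were intergenic, 1 overlapped an exon and 3 lay in a gene outside exons. Only 2 of these 9 lay within the gene they were assigned to, Epas1 and Egln3. Among the 9, 6 overlapped an enhancer of the FANTOM set as listed in the table, against 8.64% of all regions outside promoters. These 6 lay near Epas1 (2), Egln3 (2), Adm and Bnip3, and 0 of the 26 overlapped an element of the VISTA set. The header of the FANTOM column names the mouse build before mm10, and the listed overlaps were not rechecked. For E2F factors, which act in the cell cycle, the table listed a motif in 9 of the 17 promoter regions, against 33.6% of all promoters, and 5 of these 9 were promoters of neighbouring genes. For Maz it was 7 of 17 against 38.1%, for Fox factors 2 of 17 against 15.3% and for Sall factors 0 of 17 against 26.8%.

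Depth was 6492996 to 12292629 counts in regions per library, of which the 26 regions took 3531 to 8143. As a check of the label, 8 of 10 nephron progenitor markers had a listed region at their promoter, among them Six2, Itga8 and Wt1. So did 4 of 10 endothelial, 3 of 8 stromal, 3 of 8 ureteric and 0 of 6 immune markers, and 0 of these regions passed the stage test. The summed endothelial promoters ran from 99.2 to 122.0 CPM (counts scaled to the size of the library) at E14.5 and from 95.3 to 103.6 CPM at P0, and the part of such cells in the values below was not tested.

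Per length, the start of Hif1a was the most open of the 7, with 46.1 ± 8.52 CPM per kb (SD over 6 libraries), above 94.3% of all promoter regions. Ankrd37 followed with 35.5 ± 4.42 CPM per kb, and the ranges of these genes over libraries overlapped. A gap separated them from Arnt, at 17.1 ± 3.48 CPM per kb. Below Arnt, each gene overlapped the next in range: Egln3 at 12.3 ± 2.33, Bnip3 at 12.2 ± 2.38, Epas1 at 11.6 ± 1.26 and Vhl at 8.14 ± 1.00 CPM per kb. Vhl stood above 17.9% of promoter regions. The 9 regions outside promoters had mean levels of 6.20 to 12.4 CPM per kb, and the most open of them was the region within Egln3.

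The comparison of P0 with E14.5 asked whether these regions opened or closed as the kidney matured to birth. No region passed, which does not show that the stages were alike: 0 of the 26 regions passed an adjusted p under 0.05 in edgeR's quasi-likelihood test fitted over all regions, against 4.73% of the 43523 regions (1.79% higher and 2.94% lower at P0). At an unadjusted p under 0.05 there were 2 of 26, Bnip3 and Arnt at their starts, against 18.7% of all regions. DESeq2 also called 0 of the 26, against 6.38% of all regions, with 1 at an unadjusted p under 0.05, against 17.7%. With limma-voom the count was 0, against 4.38%, with 2 at an unadjusted p under 0.05, against 18.7%. The stages did not overlap in 3 of 26 regions, each lower at P0, against 24.2% of all regions. Of all promoter regions 0.851% passed, and of regions outside promoters 6.59%, so that a set of 17 promoters and 9 other regions with 0 calls lies near its background. The median log2 fold change of the 26 was -0.06, beside 0.01 over all regions, -0.10 over all promoters and 0.10 outside promoters. In 17 of 26 regions (65.4%) the fitted value was below 0, against 48.9% of all regions and 66.0% of all promoters. Without P0 replicate 1 it was below 0 in 11, with a median of 0.05. It was below 0 in 17 without P0 replicate 3 (median -0.19) and in 18 without E14.5 replicate 2 (median -0.13). With total-count scaling, which raised the median of all regions from 0.01 to 0.07, it was below 0 in 13.

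The 95% interval of the fold change lay within a 2-fold change in either direction for 24 of the 26 regions, and within 1.5-fold for 7. Over all promoters these shares were 91.8% and 34.8%, over regions outside promoters 62.6% and 10.7%, and over all regions 72.1% and 18.5%. Of the 17 promoters among the 26, all 17 lay within 2-fold, and of the other 9 regions 7 did. The other 2 regions had intervals that reached past a 2-fold rise. The first, with 19 to 51 counts per library and the widest interval of the 26, overlapped an exon of Snapc1 and had 2.25, 3.15 and 3.50 CPM at E14.5 and 3.33, 7.72 and 3.63 CPM at P0, with P0 replicate 2 apart from the rest. Its log2 fold change was 0.68 (SE 0.40) and its adjusted p 0.397 in edgeR, and leaving out a library gave 0.23 (without P0 replicate 2) to 0.88 (without P0 replicate 1). The second lay 40.1 kb before Epas1, where the fold change was 0.48 on the log2 scale (SE 0.31) and the adjusted p 0.450 in edgeR. Without E14.5 replicate 1 its value was 0.31. The other 2 regions of Epas1 outside promoters had intervals at least as wide, around values nearer to 0.

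**Figure D2:**
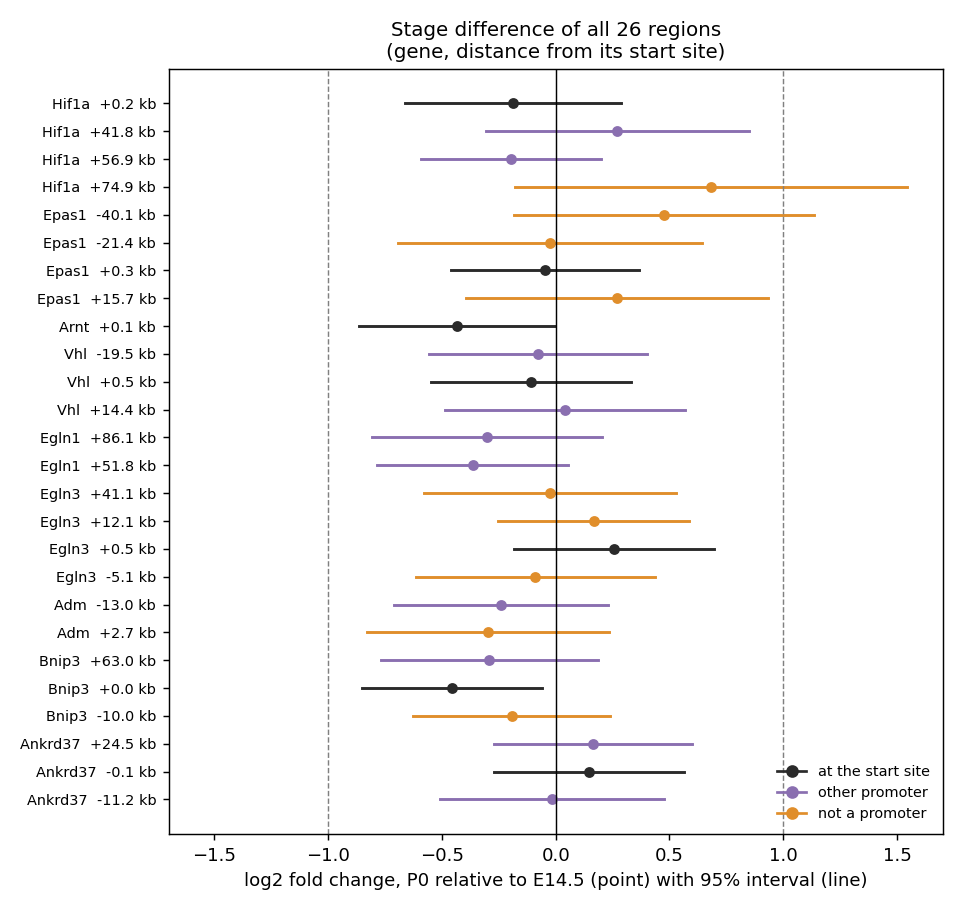
Log2 fold change at P0 relative to E14.5 (points) with its 95% interval from the edgeR fit (lines) for the 26 regions, named by gene and distance from its start site, with dashed lines at a 2-fold change. Only 2 intervals cross a dashed line, those of the regions at +74.9 kb of Hif1a and -40.1 kb of Epas1.

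Among the subunits, Hif1a, the oxygen-labile alpha subunit found in most cells, had a listed region over its start (chromosome 12, 73907276 to 73908763). Replicates 1, 2 and 3 had 77.7, 66.9 and 75.0 CPM at E14.5 and 64.6, 46.3 and 81.4 CPM at P0. The P0 libraries thus lay on both sides of the E14.5 libraries, with the lowest and the highest of the 6 values both at P0. The log2 fold change was -0.19 (SE 0.22, 95% interval -0.66 to 0.29, adjusted p = 0.715 in edgeR). It was -0.41 without P0 replicate 3 and -0.0026 without P0 replicate 2. At Epas1, the alpha subunit best known from endothelium and from the cells that make erythropoietin, the region over the start was the longest of the 7 (chromosome 17, 86752571 to 86755770). It had 37.5, 36.2 and 39.1 CPM at E14.5 and 29.4, 40.4 and 39.4 CPM at P0. All but P0 replicate 1 lay within a narrow band, and the log2 fold change was -0.05 (SE 0.19, 95% interval -0.46 to 0.37). It was -0.13 without P0 replicate 3, 0.068 without P0 replicate 1 and 0.011 with total-count scaling.

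Epas1 also had a region inside the gene, 15.7 kb after the start, and a pair of intergenic regions 40.1 and 21.4 kb before it, each at 11.4 CPM or less in every library. The intragenic region had 11.4, 5.25 and 6.89 CPM at E14.5 and 10.1, 11.1 and 7.26 CPM at P0, with overlapping stages. Arnt, the stable partner that both alpha subunits need, had a single region, over its start (chromosome 3, 95433718 to 95435220). Its accessibility was 30.5, 29.1 and 29.2 CPM at E14.5 and 16.8, 22.5 and 26.3 CPM at P0. Each P0 library lay below each E14.5 library, while the P0 values spread far wider than the E14.5 values. The log2 fold change was -0.43 (SE 0.20, 95% interval -0.87 to -0.00), with an adjusted p = 0.266 in edgeR (0.0494 unadjusted). Leaving out a library moved the fold change from -0.61 (without P0 replicate 3, adjusted p = 0.111 in edgeR) to -0.29 (without P0 replicate 1, adjusted p = 0.691 in edgeR).

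Vhl, the substrate-binding part of the ubiquitin ligase, had the least open start of the 7 (chromosome 6, 113623478 to 113625562). Its values were 17.3, 18.1 and 17.5 CPM at E14.5 and 15.2, 13.9 and 19.7 CPM at P0, and the stages overlapped (log2 fold change -0.11, SE 0.21, adjusted p = 0.835 in edgeR). Leaving out P0 replicate 3 gave -0.29 and leaving out P0 replicate 2 gave -0.013. Egln3 encodes a hydroxylase that is itself induced by hypoxia. At its start (chromosome 12, 54202270 to 54204398) the E14.5 libraries were close together at 24.4, 23.2 and 23.6 CPM, and the P0 libraries had 21.1, 34.2 and 30.0 CPM. With P0 replicate 1 below and the other P0 libraries above E14.5, the log2 fold change was 0.26 (SE 0.21, 95% interval -0.18 to 0.70, adjusted p = 0.557 in edgeR). It was 0.11 without P0 replicate 2 and 0.41 without P0 replicate 1.

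Within Egln3, 12.1 kb after the start, a region outside the exons (chromosome 12, 54190809 to 54192727) stood above 86.6% of all regions outside promoters in level per kb. It overlapped a FANTOM enhancer, and it had 26.8, 20.4 and 20.3 CPM at E14.5 and 22.3, 26.6 and 26.8 CPM at P0. The stages overlapped there (log2 fold change 0.17, SE 0.20, adjusted p = 0.712 in edgeR), and leaving out a library gave 0.087 (E14.5 replicate 2) to 0.31 (E14.5 replicate 1). Egln1, the main oxygen sensor among the hydroxylases, was represented by promoters of its neighbours alone. The larger, listed as the promoter of Gm505 (chromosome 8, 124895670 to 124899337), had 26.3, 24.9 and 33.9 CPM at E14.5 and 20.8, 24.7 and 20.7 CPM at P0. The stages did not overlap there, though E14.5 replicate 2 and P0 replicate 2 were nearly equal, and the log2 fold change was -0.36 (SE 0.20, adjusted p = 0.346 in edgeR), or -0.22 without E14.5 replicate 3.

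**Figure D3:**
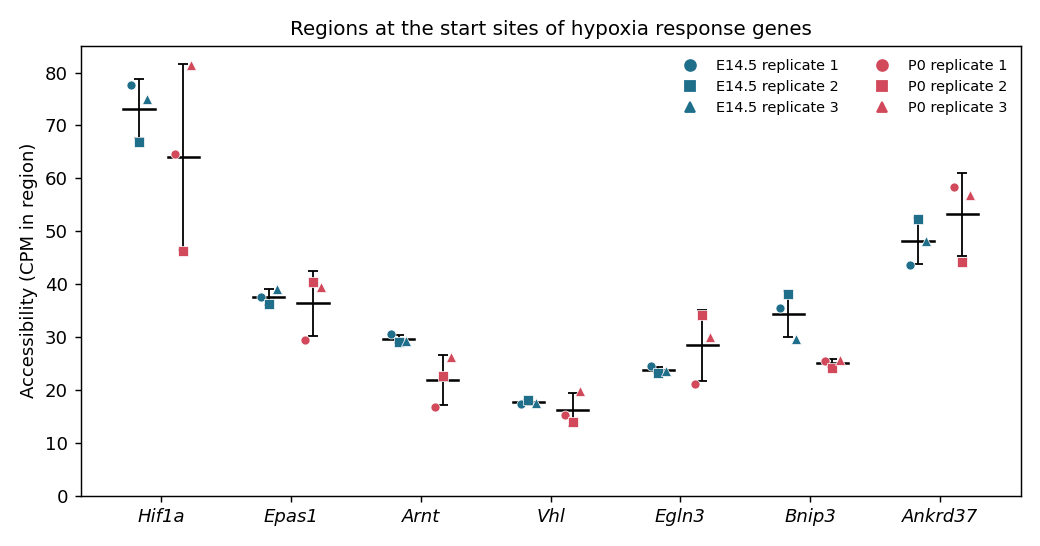
Accessibility (CPM in the region, y axis) at the 7 start-site regions in each library, E14.5 in blue and P0 in red, with the shape of the point giving the replicate, the line the mean and the bar the SD (n = 3). The stages are separate at Arnt and Bnip3 and overlap at the other 5 genes, and Hif1a and Ankrd37 stand highest.

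Among the target genes, Bnip3, which acts in the removal of mitochondria, had the smallest p of all 26 regions, at its start on chromosome 7 (138908266 to 138910707). The values were 35.5, 38.1 and 29.7 CPM at E14.5 and 25.4, 24.2 and 25.7 CPM at P0. Each P0 library lay below each E14.5 library, and the P0 libraries were close together. The log2 fold change was -0.46 (SE 0.19, 95% interval -0.85 to -0.06), with an adjusted p = 0.195 in edgeR (0.0272 unadjusted), so it did not pass. Leaving out a library gave -0.55 to -0.39. The unadjusted p in edgeR was 0.0617 with total-count scaling. It was 0.0662 to 0.0757 without P0 replicate 1, E14.5 replicate 1 or E14.5 replicate 2, and under 0.05 without each of the other libraries. The promoter sequence of Bnip3, like that of Hif1a, holds CACGTG. Ankrd37, a gene for an ankyrin repeat protein and a known target of the factor, had 43.7, 52.4 and 48.2 CPM at E14.5 and 58.4, 44.2 and 56.9 CPM at P0 at its start (chromosome 8, 45999202 to 46000627). The stages overlapped, and the log2 fold change was 0.15 (SE 0.20, 95% interval -0.27 to 0.57). It was 0.058 without P0 replicate 1 and 0.26 without P0 replicate 2.

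The region just past the end of Adm, which overlapped a FANTOM enhancer, had 9.37, 13.05 and 13.2 CPM at E14.5 and 8.64, 8.32 and 11.8 CPM at P0. The stages overlapped, and the fold change was -0.30 on the log2 scale (SE 0.25, adjusted p = 0.577 in edgeR), or -0.50 without P0 replicate 3. Over the 10 promoters of neighbouring genes the log2 fold changes ran from -0.36 to 0.27, and over the 9 regions outside promoters from -0.30 to 0.68. At the edge of the window, the promoter of Gnpat, 45.4 kb from Egln1, was the farthest region inside, with 19.9 CPM at E14.5 and 16.0 CPM at P0. The nearest outside was a promoter of Irak2, 58.9 kb from Vhl, with 18.6 and 14.7 CPM.

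Counts were also summed over all regions of a gene and tested for 41554 genes, whose windows share regions with those of their neighbours. Of the 9 member genes with a region, 0 passed an adjusted p under 0.05, against 0.12% of all genes, and 1 had an unadjusted p under 0.05, against 13.5%. DESeq2 and limma-voom called 0 of the 9 as well, against 1.94% and 0.0553% of all genes, with 0 at an unadjusted p under 0.05, against 13% and 12.8%. The gene with an unadjusted p under 0.05 in edgeR was Bnip3, whose sums were 81.5, 90.4 and 83.4 CPM at E14.5 and 65.6, 57.2 and 79.0 CPM at P0, without overlap. In the fit of window counts its fold change was -0.28 on the log2 scale (SE 0.13, adjusted p = 0.370 in edgeR). That fit scaled the libraries anew, so its fold changes are not on the scale of the CPM sums. Egln1 (48.3 ± 5.32 CPM at E14.5 against 38.1 ± 2.95 CPM at P0, SD, n = 3 each) and Arnt also had no overlap between stages, and the other 6 genes overlapped. All 3 were lower at P0. Over all gene windows, compared in window counts scaled to library size, the stages did not overlap in 18.9%, and P0 was lower in 10.4%. On that scale the same 3 of the 9 genes did not overlap. Intervals were narrower in the window fit than at the starts: that of Hif1a was -0.32 to 0.19 and that of Vhl -0.30 to 0.31 (log2). The windows of these genes also hold promoters of neighbouring genes. Arnt, with a single region and so nothing to sum, had -0.78 to 0.030 in the window fit, against -0.87 to -0.0013 in the region fit. The source of the narrowing was not tested.

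**Figure D4:**
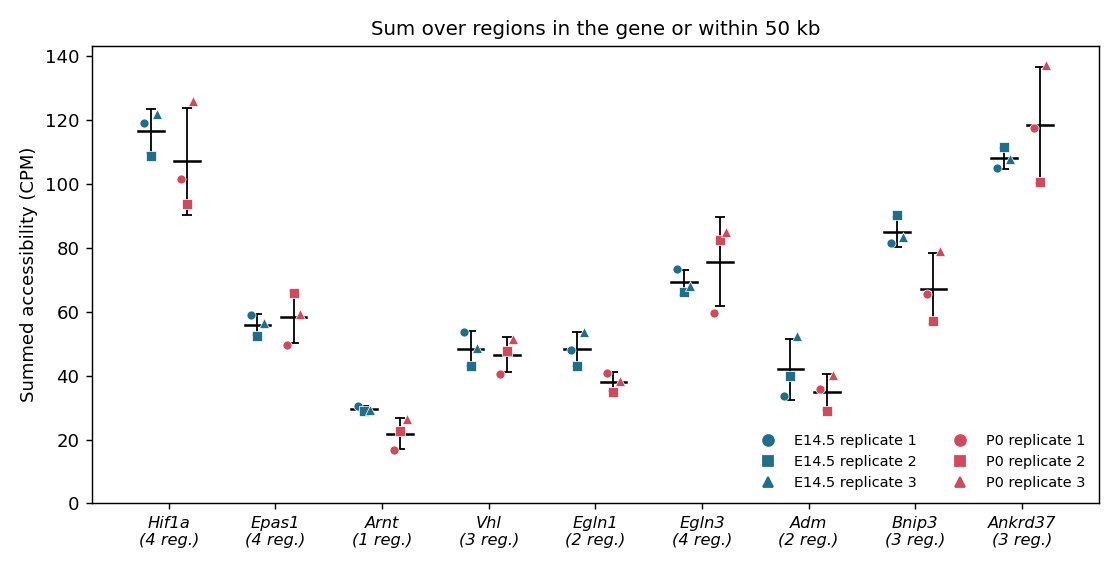
Accessibility summed over the regions in or within 50 kb of each gene (CPM, y axis) in each library, with the number of regions under the name, the mean (line) and the SD (bar, n = 3), E14.5 in blue and P0 in red. The P0 libraries lie below all E14.5 libraries at Arnt, Egln1 and Bnip3, and Vegfa is left out because it had no region.

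A further 29 genes of the pathway, among them subunits and regulators such as Hif3a, Egln2, Hif1an and Cited2 and target genes such as Slc2a1, Pdk1, Ldha, Pgk1 and Car9, had 116 regions by the same rule. Of these, 0 passed in either direction, against 4.73% of all regions, and 18 had an unadjusted p under 0.05 in edgeR, against 18.7%. With DESeq2 1 passed (6.38% of all regions) and with limma-voom 0 (4.38%), each with 18 at an unadjusted p under 0.05, against 17.7% and 18.7% of all regions. Their median log2 fold change was -0.03. The stages did not overlap in 29 of the 116, of which 14 were higher and 15 lower at P0, against 11.8% and 12.4% of all regions. At the start sites of 25 of these genes, the stages did not overlap in 8 of 27 regions, of which 7 were lower at P0, among them Slc2a1, the glucose transporter, and Pdk1, the kinase that inactivates pyruvate dehydrogenase. A region over an end of Ndrg1, listed as the promoter of Gm2895, is not among the 27 and had overlapping stages. The share for all promoter regions was 16.7%, with P0 lower in 12.1% and higher in 4.63% of them all. Slc2a1 had a log2 fold change of -0.45 and Pdk1 of -0.46, with adjusted p-values of 0.244 and 0.288 in edgeR. The smallest p at a start site was that of Lox, an enzyme gene of collagen crosslinking, which went the other way. Lox had 23.1, 23.9 and 27.8 CPM at E14.5 and 35.6, 32.4 and 39.2 CPM at P0, with a fold change of 0.52 on the log2 scale (SE 0.19, adjusted p = 0.135 in edgeR). The smallest adjusted p of the 116 was 0.0569, at an intergenic region 14.9 kb from Pfkfb3, an enzyme gene of glycolysis control. This gene, Lox, Slc2a1 and Pdk1 were chosen after their values were seen. The Pfkfb3 region on chromosome 2 (11456248 to 11456809) had 2.61, 4.03 and 3.04 CPM at E14.5 and 5.52, 13.8 and 6.24 CPM at P0.

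In the authors' deposited table, all 26 regions were classed as stable, with adjusted p-values of 0.179 to 0.972 and log2 fold changes of -0.51 to 0.43. Of the 116 regions of the other pathway genes, the authors' deposited table classed 114 as stable and 2 as opening, the start-site regions of Lox (adjusted p 0.0940) and Cited2 (adjusted p 0.0882).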

How the data were processed

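ATAC-seq counts of 6 libraries were used, with stage and replicate number read from the source names in the labels. Each count column was matched to its library by title, and 0 sample columns were left unmatched. The deposited table gives whole-number counts per region, per the file headers. The authors' log2 fold change and adjusted p-value, per the file headers, come from a model that the labels do not describe. The submitters' processing notes name the build mm10. The aligner, peak caller, counting rule, Tn5 shift and duplicate removal are not given in the sources used here, and their effect was not assessed.

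Of 45489 rows, 1966 repeated a region and were dropped. Genes and starts were taken from RefSeq (GRCm38.p6, the assembly of mm10), and all 10 member genes and 29 further genes matched. For genes not matched in the RefSeq promoter table (Epas1 and 7 of the 29), a start-site region was one the deposited table lists as the gene's promoter, which gave 1 for Epas1 and for 5 of the 7, and the start was the RefSeq gene end under it. Counts were tested with edgeR 4.0.16 (R 4.3.3) with TMM scaling, filterByExpr (which removed 0 regions), the quasi-likelihood F test and Benjamini-Hochberg adjustment over all regions, and CPM used TMM-scaled totals. Standard errors are the fold change over the root of F. The fit was tested on simulated data, where the region fit missed most of the 2-fold changes put in. No replicate block was used. Litters are separate animals, so p-values measure the spread between litters.

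Named regions were every start-site region, and for each gene the region with the smallest p and the one with the highest level per kb. The members and lists were chosen with earlier results of these data known. Alternatives were DESeq2 1.42.0 size factors and Wald test, total-count scaling, limma-voom (limma 3.58.1), no filter, a minimum of 50 counts, a replicate block, leaving out each library, thresholds of 0.1 and 0.01, and windows of 10 kb or the gene body. Figures were drawn with matplotlib 3.10.9.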

Additional observations from a re-analysis of the deposited data

How the results depend on the processing

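For the 26 member regions, 0 were called under each alternative that was run, with the lowest adjusted p between 0.111 and 0.452, and for the 9 member genes by summed counts 0 were called as well. Fewer were tested with the minimum of 50 counts (23 regions), the 10 kb window (13 regions, 8 genes) and the gene body (9 regions, 7 genes). A replicate block in the edgeR fit also left 0 of 26 regions and 0 of 9 genes called, with the lowest adjusted p at 0.197 for regions. The block moved the calls over all regions from 2059 to 1834. Deviations of same-numbered libraries from their stage means correlated at r = 0.062, -0.12 and 0.093, so the numbers were not taken to pair libraries. For the 116 regions of the other pathway genes, 0 were called with all libraries, 1 with total-count scaling (4.47% of all regions), 1 with the DESeq2 Wald test (6.38%), 1 with the replicate block (4.21%), 2 at a threshold of 0.1 (8.02%), and 0 to 3 when single libraries were dropped. That count was 2 without E14.5 replicate 2 (Hif3a, Ndrg1; 6.86% of all regions), and it was 3 when P0 replicate 3 was dropped (Hif3a, Pfkfb3, Hmox1; 5.16%). The region called by scaling and by DESeq2 was that of Pfkfb3, and by the block one of Hif3a. The cause of these differences was not tested. Of 206 refitted values for 16 named regions, 200 kept their direction and none passed. The other 6 reversed. The log2 fold change at the start of Epas1 was 0.011 with total-count scaling, which moved the median of all regions by about as much, and -0.13 to 0.068 when a library was left out (0.068 without P0 replicate 1). The Irak2 promoter beside Vhl (main value 0.04) ran from -0.14 to 0.35 and was below 0 without E14.5 replicate 2, E14.5 replicate 3 or P0 replicate 2, and the Ufsp2 promoter beside Ankrd37 (main value 0.16) from -0.053 (without P0 replicate 3) to 0.27. Over all regions 339 to 2987 passed when one library was left out and 855 with the minimum of 50 counts, and for gene windows 50 passed with all libraries, 808 with DESeq2, 366 with the replicate block, 182 with total-count scaling, 23 with limma-voom and 10 with the minimum of 50 counts. Single libraries moved the count for gene windows from 0 (without E14.5 replicate 3 or P0 replicate 1) to 793 (P0 replicate 3 left out), with 315 when E14.5 replicate 2 was left out, so the background share of gene windows depends on them. Depth was 19 to 1031 counts per member region and library, and the interval of each fold change gives the precision reached.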

Other observations

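The table also carries columns of predicted target genes for 18925 of the regions, with scores and cell types whose source is not described. Of 183177 pairs of region and gene, 0.545% lay on the same chromosome. The 10 hypoxia genes were named as targets in 104 entries, of which 0 were on the chromosome of the gene, for example 9 entries for Hif1a and 12 for Vegfa. These columns were therefore used only for pairing gene identifiers with names, and no target of a region was taken from them.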
